A study of Mus musculus with 2 samples.

Results

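Neutrophils and monocytes of the mouse thoracic aorta were followed in single-cell transcriptomes of 2 GFPiSMC mice, which the labels also call WT. They were picked out cell by cell from measured counts of unique molecular identifiers (UMIs, the tags that let each captured molecule of RNA be counted once). Cells with *S100a8* and *S100a9* UMIs summing to at least 5 formed the neutrophil group, and cells with at least 3 *Lyz2* UMIs and at least 2 of the 5 genes *Ccr2*, *Plac8*, *Ly6c2*, *Ace* and *Chil3* formed the monocyte group. Cells with any UMI of *Cd3e*, *Cd79a*, *Flt3*, *Cd209a*, *Folr2*, *Cd163*, *Pecam1* or *Pdgfra*, or with a *C1qa*, *C1qb* and *C1qc* sum of 5 or more, were left out. The rule gave 142 cells among the 11442 cells that passed the filter on cell quality, 76 in the neutrophil group and 66 in the monocyte group.

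Neutrophils are short-lived granulocytes that are made in the bone marrow, circulate in blood and enter tissue along gradients of chemokines, formyl peptides and complement fragments. They carry antimicrobial proteins and proteases in granules, store the calcium-binding pair S100A8 and S100A9 in the cytosol, and depend on the receptor for granulocyte colony-stimulating factor. Monocytes are mononuclear phagocytes of the blood that depend on the receptor for macrophage colony-stimulating factor. In the mouse the classical kind carries Ly6C and the chemokine receptor CCR2 and can enter tissue and become macrophages or antigen-presenting cells. The non-classical kind has little Ly6C, needs the nuclear receptor NR4A1 and patrols the inner surface of vessels.

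The 2 animals were GFPiSMC mice on C57BL/6J, which carry a Cre that tamoxifen activates, driven by *Myh11*. In smooth muscle this Cre recombines the mT/mG reporter, so that membrane eGFP replaces tdTomato. Per the labels they received tamoxifen at 1 mg/d from 3 weeks of age for 5 days and were studied at 12 weeks, whereas the methods give a later start and a higher dose for most animals of the study. They formed 1 group, and the methods give the sex as male and describe a saline flush of the circulation. Digestion was done at low temperature. The labels describe sorting of live singlets with no gate on eGFP, whereas the methods describe sorting of GFP+ smooth muscle cells, and elsewhere the study speaks of aortic cells with fibroblasts among them in these mice. The labels are followed here. The shares of cells given below depend on that gate. The deposited libraries held 8947 cells (47009780 UMIs) in aorta 1 and 6263 cells (30919996 UMIs) in aorta 2, and the cells kept here had medians of 5773 and 5462 UMIs. Cells inside the vessels of the wall and cells that had entered the tissue cannot be told apart in these data. The libraries shared 18 barcodes, none of them of a neutrophil or monocyte, and a doublet caller marked 201 cells (2.98%) and 89 cells (1.89%), none of which was a neutrophil or monocyte.

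*S100a8* and *S100a9* lie close together on chromosome 3 of GRCm38, *S100a8* at 90668978 to 90670035 on the forward strand and *S100a9* at 90692632 to 90695721 on the reverse strand, and their products form a heterodimer. *Il1b*, which encodes interleukin-1β, lies on chromosome 2 at 129364570 to 129371139 on the reverse strand. The sequence around the hexamer TATAAA, set in capitals, is shown for the S100 pair because these genes chose the neutrophils, and for *Il1b* because it is the cytokine whose level in neutrophils is described below. Sequences are from RefSeq (GRCm38.p6) and run 5′ to 3′ on the strand of the gene.
S100a8, chr3:90669029-90669058: caagctttcctcTATAAAagcagctgacac
S100a9, chr3:90695704-90695733: caaggagctgccTATAAAtactgggcttac
Il1b, chr2:129371153-129371182: gctttttaggacTATAAAacaagggaggga
The hexamer began 30 bases before the RefSeq start of *S100a8*, 31 bases before that of *Il1b*, and at the RefSeq start of *S100a9* itself. TATAAA on either strand was present in 13.6% of 32851 mouse promoter windows, each from 250 bases before to 50 bases after a start. Of the 10 genes named below as highest in neutrophils, 7 had a window and 2 of these (*H2-Q10* and *Lrg1*) held the hexamer.

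The counts that chose the cells were as follows and are a description only. In neutrophils the sum of *S100a8* and *S100a9* UMIs ranged from 5 to 613 in aorta 1 (median 85) and from 6 to 1404 in aorta 2 (median 203). At most these 2 genes took up 21.9% and 40.3% of all UMIs of a cell. Near the limit there were few cells: 1 and 2 cells with a sum of 4 were outside, and inside there was 1 cell with 5 in aorta 1 and 2 cells with 6 in aorta 2. Of all cells that passed the filter, 49 and 41 had a sum of at least 5, and 7 in each aorta were left out, 6 because they also carried an excluded gene and 1 for its C1q sum. Smooth muscle cells, which should lack these genes, had any *S100a8* or *S100a9* UMI in 14 of 1666 cells (0.840%) in aorta 1 and in 24 of 1179 cells (2.04%) in aorta 2, at median depths of 7645 and 7489 UMIs against 1749 and 1936 in neutrophils. The monocyte group held 1 and 0 UMIs of the pair.

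Among monocytes, *Plac8* was detected in 40 of 41 cells in aorta 1 and 25 of 25 in aorta 2, *Ccr2* in 31 and 18, *Ace* in 26 and 13, *Ly6c2* in 25 and 12, and *Chil3* in 23 and 14. *Lyz2* (lysozyme) had medians of 121 and 71 UMIs per monocyte and lowest values of 3 and 12. Cells with enough *Lyz2* but only 1 of the 5 genes numbered 13 in each aorta and lay just outside, and 7 and 9 monocytes had exactly 2. *Csf1r*, which the rule did not use, was detected in 39 and 21 monocytes and in 9 and 6 neutrophils. *Vcan*, a gene of classical monocytes in blood, had 2 and 1 UMIs in all monocytes. In all, 3 and 1 cells met both rules and were counted as neutrophils.

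**Figure D1:**
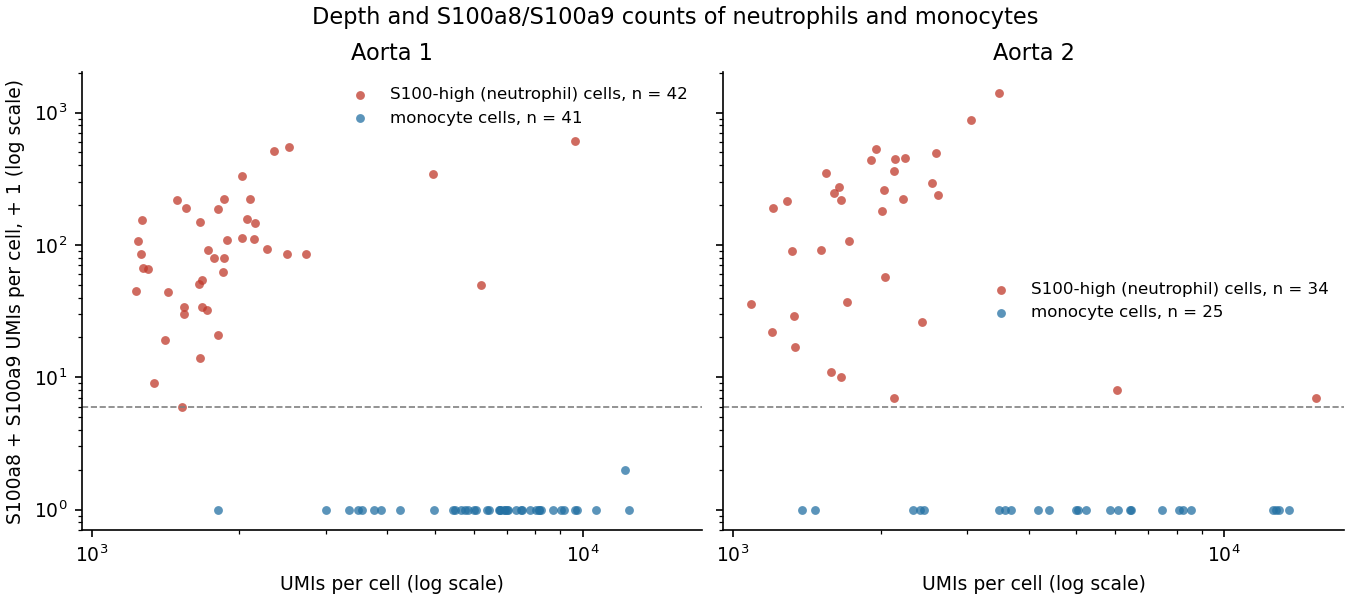
UMIs per cell on a log scale (x axis) against the sum of *S100a8* and *S100a9* UMIs plus 1 on a log scale (y axis) for each neutrophil and monocyte of aorta 1 and aorta 2, with a dashed line at the limit of 5 (drawn at 6 because 1 is added). Neutrophils form a column of shallow cells, most below 5000 UMIs, that spans sums from 5 to 1404, and monocytes lie at 0 or 1 over a wider range of depths.

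The 2 aortas held these cells in nearly equal shares. Neutrophils and monocytes together numbered 83 of 6744 in aorta 1, or 1.23% with an exact 95% interval from 0.981 to 1.52, and 59 of 4698 in aorta 2, or 1.26% (0.957 to 1.62). Neutrophils alone made up 0.623% (0.449 to 0.841) and 0.724% (0.502 to 1.01), and monocytes 0.608% (0.437 to 0.824) and 0.532% (0.345 to 0.785). The intervals are exact binomial (Clopper-Pearson), cover counting error only, and overlap between the aortas for both groups. The mean share was 1.24% ± 0.0178 (SD, n = 2) for the whole and 0.673% ± 0.0714 for neutrophils. Resident macrophages, for comparison, numbered 590 and 328 cells, and dendritic cells 17 and 16.

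Neutrophils were the shallow cells of the set. Their median was 1749 UMIs and 873 genes in aorta 1 and 1936 UMIs and 881 genes in aorta 2, against 6795 UMIs and 2302 genes, and 5230 UMIs and 1965 genes, in monocytes. In total 40 of 42 and 32 of 34 neutrophils had fewer than 5000 UMIs. A minimum of 5000 UMIs therefore left 2 neutrophils in each aorta, a share of 0.0646% of the cells then kept. A maximum of 1% structural UMIs in a cell, those of smooth muscle and fibroblast genes, also shrinks the denominator. It raised the neutrophil share to 1.65%. The share of these cells thus depended on the cell filter far more than on the aorta.

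The defining markers of neutrophils were present in the cells chosen by *S100a8* and *S100a9*. At least 1 UMI of *Csf3r*, the granulocyte colony-stimulating factor receptor, or of *Cxcr2*, the receptor for neutrophil-attracting chemokines, was found in 42 of 42 cells in aorta 1 and 32 of 34 in aorta 2. *Mmp9* (gelatinase B of the tertiary granules) was detected in 36 and 29 cells, *Il1b* in 39 and 26, and *Retnlg* (resistin-like gamma) in 27 and 26. By contrast *Mpo*, the myeloperoxidase transcript made in marrow precursors, had no UMI in either aorta, and *Camp*, *Ltf* or *Ngp*, transcripts of secondary granules that are made before release from the marrow, were seen in 1 and 2 cells. For *Mpo* this is 0 of 76 cells, which allows a share of cells with a UMI of up to 3.95% and sets no limit on cells that express it below detection.

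A few cells of the neutrophil group went against the label. The deepest one of aorta 2 had 15337 UMIs, 18.6% of all UMIs of that aorta's group, with 6 UMIs of the *S100a8* and *S100a9* pair, 481 of *Lyz2*, and none of *Csf3r* or *Cxcr2*. It alone carried the *Elane* (6 of 6), *Mki67* (20 of 20) and *Top2a* (10 of 10) UMIs of that group. In another cell of aorta 2, with a pair sum of 7, lay 195 of the group's 231 UMIs of *Acta2*, smooth muscle actin. The deepest cell of aorta 1 (9644 UMIs, 10.7% of its group) was also the one with the highest pair sum there, 613. It met both rules, with 285 UMIs of *Lyz2*, 19 of *Ccr2* and 17 of *Chil3* beside 2 of *Csf3r* and 7 of *Cxcr2*. These and similar cells, 7 in aorta 1 and 8 in aorta 2 over both groups, met both rules, had 1% or more structural RNA, or carried dendritic or mesothelial transcripts. Values without them, an alternative that was chosen after seeing the data, are given beside the main results that they changed most.

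Marker lists of other cell types gave the following sums of CPM (UMIs of a gene per 1000000 UMIs, summed over the cells of a group in 1 aorta). The 6 smooth muscle markers summed to 1259 and 5518 CPM in neutrophils and to 1384 and 508 in monocytes, against 46719 and 45272 in smooth muscle cells. The 10 monocyte markers, 6 of which had chosen the monocytes, summed to 6487 and 9468 CPM in neutrophils and to 29654 and 25983 in monocytes. They include *Lyz2*, which neutrophils are known to express as well. The 8 dendritic cell markers summed to 22.3 and 0 CPM in neutrophils and to 3.6 and 97.7 in monocytes, against 1470 and 694 in dendritic cells. The 10 macrophage markers summed to 66.9 and 85.1 CPM in neutrophils and 151 and 104 in monocytes, against 27921 and 33183 in resident macrophages. All 6 T cell markers were at 0 in neutrophils, all 6 natural killer or innate lymphoid markers were at 0 in both groups, and the 6 platelet markers summed to 11.1 and 0 CPM in neutrophils and to 0 in monocytes. The 6 fibroblast markers summed to 368 and 510 CPM in neutrophils and 379 and 287 in monocytes, and the 6 mesothelial markers to 0 and 176 CPM in monocytes. The 6 erythroid markers summed to 167 and 122 CPM in neutrophils and 43.3 and 39.1 in monocytes, below the 511 and 461 of smooth muscle cells. The part that RNA of these other types had in the results below was not tested beyond leaving out the cells that carried most of it.

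For several genes that the rule did not use, a large part of the UMIs in the whole aortic preparation lay in these few cells, a description without a test. Neutrophils held 87.3% and 97.9% of all *Retnlg* UMIs of aorta 1 and aorta 2, 80.3% and 78.4% of *Cxcr2*, and 52.8% and 48.4% of *Csf3r*. They held 52.9% and 43.9% of *Il1b*. For *Mmp9* and *Lcn2* (lipocalin 2, which binds bacterial siderophores) they held a minority, 20.4% and 26.9%, and 15.5% and 24.3%. Monocytes held 44.7% and 40.8% of *Treml4*.

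**Figure D2:**
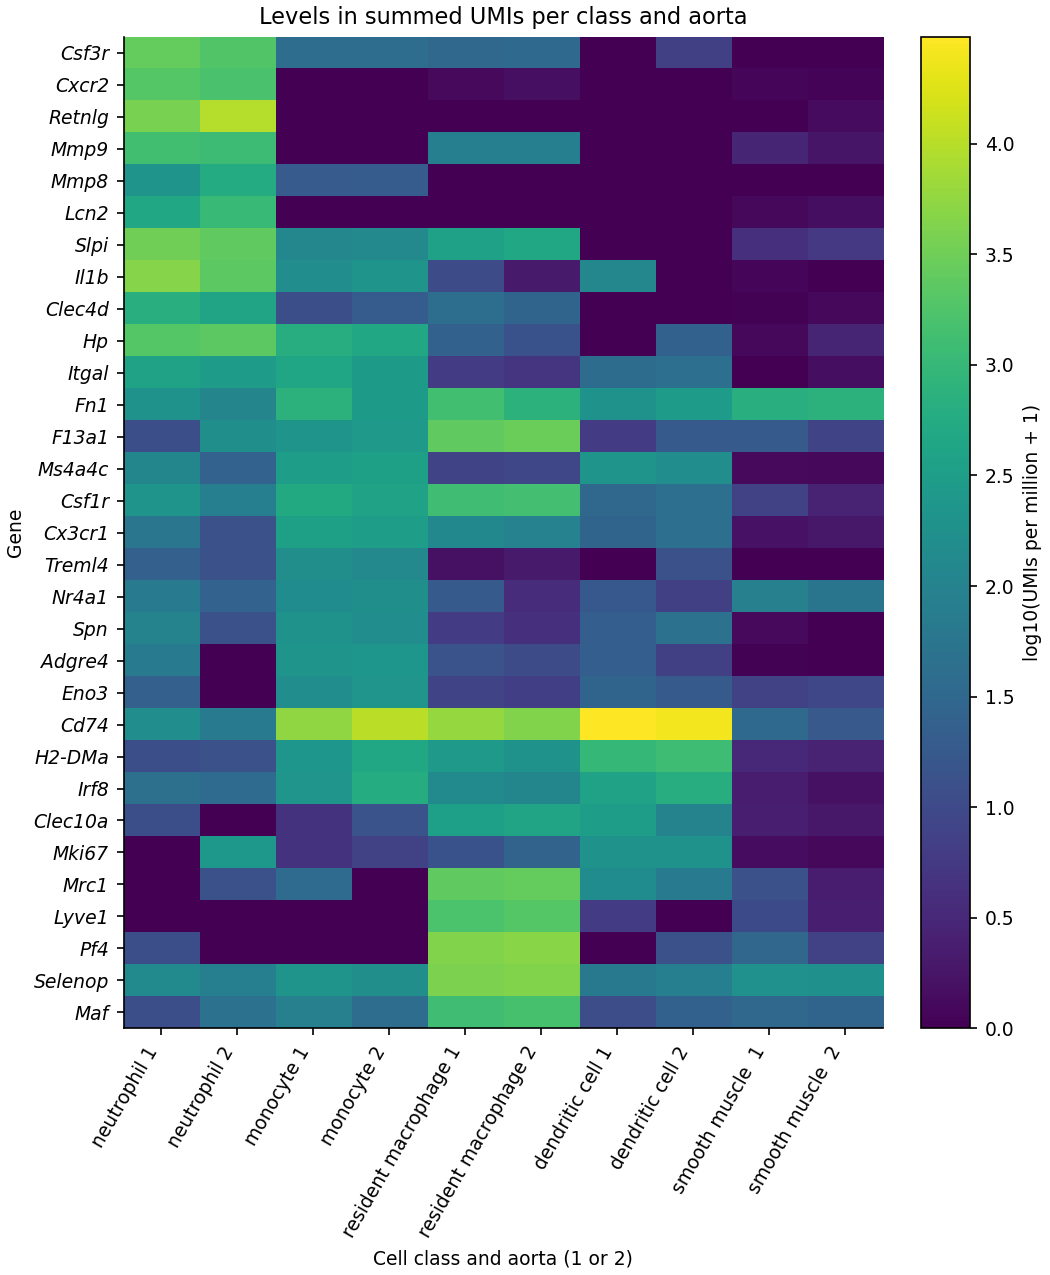
Heat map of log10(CPM + 1) for marker and other named genes (rows) in neutrophils, monocytes, resident macrophages, dendritic cells and smooth muscle cells of aorta 1 and aorta 2 (columns). Lighter means higher: *Retnlg* and *Cxcr2* are light in the neutrophil columns of both aortas and at 0 in both monocyte columns, and *Pf4* and *Lyve1* are light in the macrophage columns and at 0 in monocytes.

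Neutrophils and monocytes of the same aortas were compared first, on UMIs summed per group and aorta, with resident macrophages and dendritic cells in the same model (edgeR's quasi-likelihood test with Benjamini-Hochberg adjustment over all genes). Calls needed an adjusted p below 0.05 together with a log2 fold change beyond 1 in either direction, and the genes used to choose any group were left out of the calls. Of 3834 genes tested, 790 (20.6%) were called, 433 (11.3%) higher in neutrophils and 357 (9.31%) higher in monocytes. Because other genes of the same cells chose the groups, these tests say only that a difference repeated in the 2 aortas beyond their spread. The count was 523 without neutrophils of aorta 1, 494 without monocytes of aorta 1 and 1231 (513 and 718) without the cells that carried RNA of another type, with 751 genes (95.1%) of the 790 among the 1231. The depth difference between the groups, given above, runs with every one of these results, and its part was not tested.

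The clearest neutrophil genes had no UMI at all in the monocytes of either aorta. *Retnlg* (chromosome 16, 48872621 to 48874496, GRCm38) stood at 3745 CPM in aorta 1 and 9529 CPM in aorta 2 in neutrophils, at least 935-fold above the limit of 3 UMIs over the monocyte group. *Cxcr2* stood at 2040 and 1544 CPM (at least 259-fold) and *Mmp9* at 1337 and 1191 CPM (at least 182-fold). *Lrg1*, a secreted leucine-rich glycoprotein stored in neutrophil granules, was at 1360 and 802 CPM (at least 157-fold), and *Lcn2* at 479 and 1070 CPM (at least 109-fold). The other genes of this kind were *H2-Q10*, a class I histocompatibility gene (at least 88.5-fold), *Wfdc21* and the stefin gene *Stfa2l1* (at least 87.7-fold each), the stefin-family gene *Cstdc4* (at least 67.7-fold) and *Slc40a1*, which encodes the iron exporter ferroportin (at least 64.3-fold). *H2-Q10*, *Stfa2l1* and *Cstdc4* have close copies in the genome, so their reads may be shared with relatives. All 10 were called by edgeR, while DESeq2 did not call *Retnlg*, *Lcn2*, *Stfa2l1* or *Cstdc4* (adjusted p of 0.056, 0.18, 0.21 and 0.23).

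Among 7 MHC class II genes tested, 3 were higher in monocytes and none in neutrophils. *Cd74*, the invariant chain that escorts MHC class II molecules, was at 5584 and 10562 CPM in monocytes and 156 and 72.9 in neutrophils, a log2 fold change of -6.05 ± 0.44 (SE) for neutrophils over monocytes. In monocytes without the cells that carried RNA of another type it was at 5980 and 3607 CPM (log2 fold change -5.43 ± 0.38). *Aif1* (an actin-binding protein of macrophages) was at 260 and 267 CPM and had no UMI in neutrophils, at least 15.0-fold higher in monocytes, and *Tmem176a* (a membrane protein of antigen-presenting cells) was at 159 and 163 CPM and had none, at least 9.18-fold higher. The class II loading genes *H2-DMa* (227 and 488 CPM) and *H2-DMb1* (209 and 423 CPM) had 2 UMIs each in all neutrophils. Without the cells that carried RNA of another type, *H2-DMa* was at 219 CPM and *H2-DMb1* at 169 CPM in monocytes of aorta 2. *Lgmn* (legumain, a lysosomal protease), *Ly6i*, *Cbfa2t3*, *Tmem176b* and *Eno3* completed the 10 genes highest in monocytes. *Ly6i* is a near copy of *Ly6c2*, and its call was lost under 4 of 13 alternatives.

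**Figure D3:**
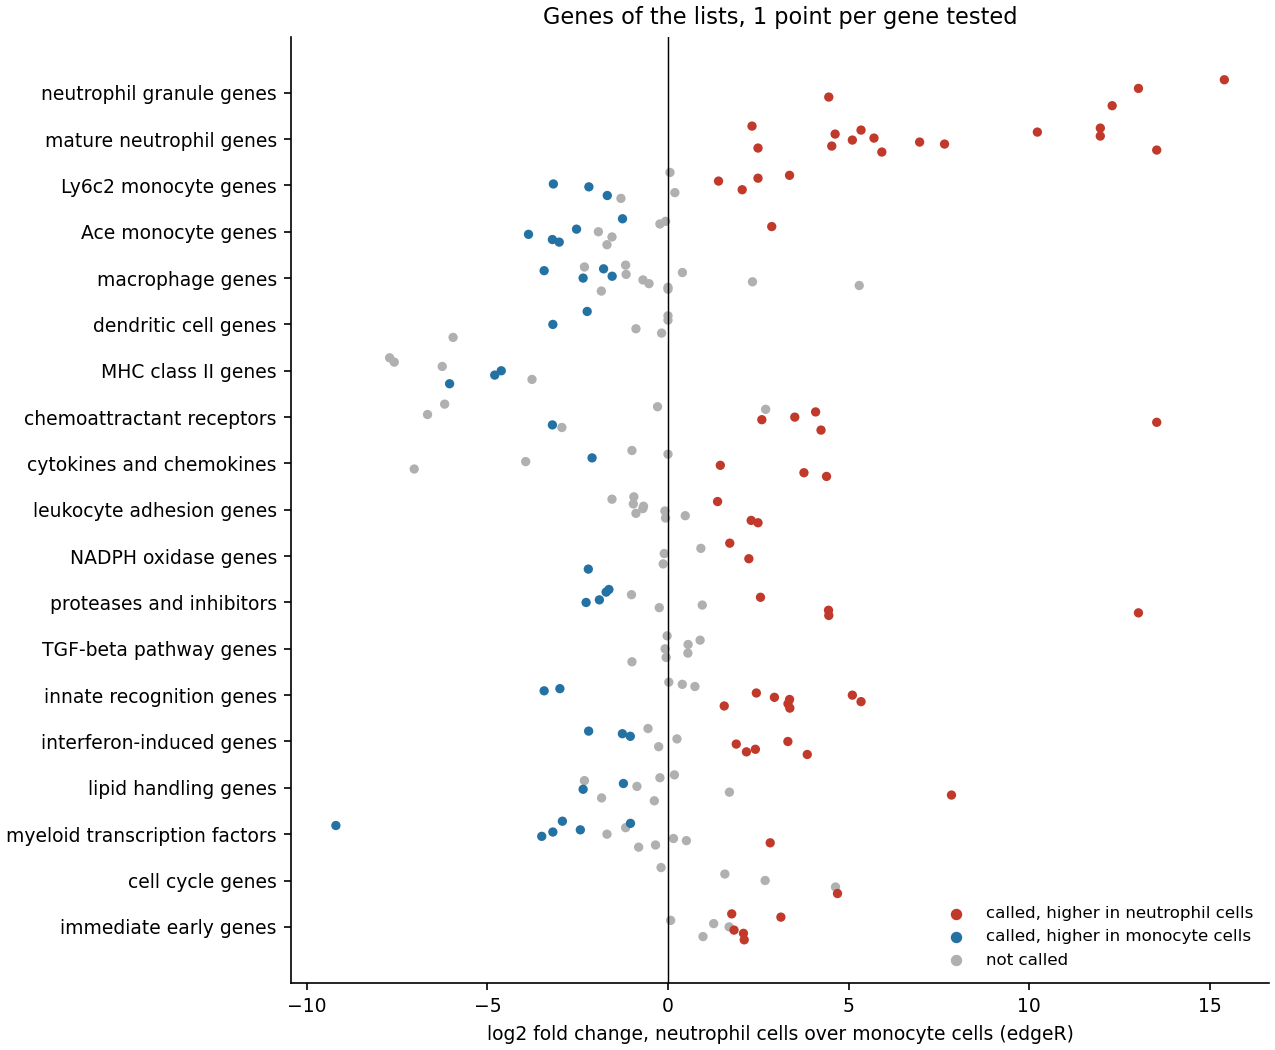
Log2 fold change of neutrophils over monocytes (x axis) for each tested gene of the gene lists (rows), with genes past the test and genes not past it drawn apart. Granule and mature neutrophil genes lie to the right of 0, MHC class II genes lie to the left, and TGF-β pathway genes cluster near 0 with a median of -0.02.

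Granule and mature neutrophil genes lay on the neutrophil side. Of 12 granule genes listed, 4 passed the filter on low counts and all 4 were higher in neutrophils (*Retnlg*, *Mmp9*, *Lcn2* and *Mmp8*). *Mmp8*, neutrophil collagenase, was at 212 and 571 CPM against 18 and 19.5. The other 8 were too low to test, and among them *Cd177* stood at 11.1 and 97.2 CPM in neutrophils and *Ngp* at 0 and 85.1. One cell of aorta 2, which held the most *S100a8* and *S100a9* (1404 of its 3480 UMIs), carried 6 of 7 *Ngp* UMIs, 6 of 6 *Camp* UMIs and 206 of 784 *Retnlg* UMIs of that aorta's neutrophils.

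All 14 tested genes of the 15 mature neutrophil genes were called higher in neutrophils, with a median log2 fold change of 5.81 against -0.10 over all genes. Genes that passed the filter only through neutrophils had to differ, so the counts of this list and of the others, in this and the later comparisons, are a description. *Csf3r* was at 2664 and 1835 CPM in neutrophils and 39.7 and 39.1 in monocytes (log2 fold change 5.92 ± 0.34). *Ifitm1*, an interferon-induced membrane protein, was at 4458 and 1045 CPM against 3.6 and 0. *Slpi*, a secreted inhibitor of leukocyte proteases, was at 3288 and 2467 CPM against 119 and 130. *Mxd1*, a partner of MAX that represses growth genes, was at 981 and 681 CPM against 10.8 and 0, and *Hdc*, the enzyme that makes histamine, at 580 and 352 against 3.6 and 0. For each of these genes the lower neutrophil value was above the higher monocyte value.

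Of 11 receptors for chemoattractants tested, 5 were not called, 5 were higher in neutrophils (*Cxcr2*, *Ccr1*, *C5ar1*, *Cxcr4* and *Fpr1*) and 1 in monocytes (*Cx3cr1*, the fractalkine receptor). *Ccr1*, a receptor for inflammatory CC chemokines, was at 1159 and 510 CPM in neutrophils and 32.4 and 71.6 in monocytes. *C5ar1*, the receptor for complement C5a, was at 479 and 304 CPM against 46.9 and 19.5. *Cxcr4*, which holds neutrophils in the marrow and guides aged ones back to it, was at 535 and 352 CPM against 90.1 and 58.6. *Cx3cr1* ran the other way, at 55.7 and 12.2 CPM in neutrophils and 357 and 319 in monocytes. The receptor for leukotriene B4, *Ltb4r1*, was at 100 and 85.1 CPM in neutrophils and 144 and 84.7 in monocytes and was not called.

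Of 13 innate recognition genes tested, 8 were higher in neutrophils, 3 were not called and 2 were higher in monocytes (*Fcgr1* and *Fcgr2b*, receptors for the constant part of IgG). *Clec4d*, a lectin receptor for fungal and mycobacterial lipids, was at 658 and 413 CPM in neutrophils and 10.8 and 19.5 in monocytes. *Nlrp3*, the inflammasome sensor whose activation leads to cleavage of interleukin-1β, was at 234 and 207 CPM against 21.6 and 26.0. *Il1b* was at 4748 and 2249 CPM against 155 and 208 (log2 fold change 4.39 ± 0.66, edgeR adjusted p = 0.00080). Its decoy receptor *Il1r2* was at 267 and 194 CPM against 7.2 and 0, and the receptor antagonist *Il1rn* at 145 and 146 against 18 and 0, and both were called.

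Other cytokines were few. Of 23 cytokine and chemokine genes listed, 8 passed the filter. *Il1b*, *Il1rn* and *Ccl6* were higher in neutrophils, and *Ccl9* was higher in monocytes, at 375 and 365 CPM against 78.0 and 85.1. *Il6* had no UMI in either group. *Tnf* stood at 22.3 and 12.2 CPM in neutrophils and 0 in monocytes, and *Cxcl2*, a neutrophil-attracting chemokine, at 346 and 12.2 CPM in neutrophils and 0 in monocytes, below the filter.

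Of 12 leukocyte adhesion genes, 3 were higher in neutrophils, among them *Selplg* (the P-selectin ligand) and *Cd44*, and none was higher in monocytes, a share near the 20.6% called over all genes. Without the cells that carried RNA of another type, 4 were called higher in monocytes (*Itga4*, *Itgb1*, *Itgb7* and *Spn*). *Selplg* was at 1226 and 912 CPM in neutrophils and 216 and 247 in monocytes. The β2 integrin chain *Itgb2* was at 346 and 389 CPM against 429 and 391 and was not called. Among 6 NADPH oxidase genes, *Ncf1* and *Rac2* were higher in neutrophils and *Cybb*, the catalytic chain, was higher in monocytes at 1406 and 1420 CPM against 379 and 194. *Cybb* was at 15.4 and 150 CPM in neutrophils once the cells that carried RNA of another type were left out.

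Proteases split between the groups. Of 11 tested, *Mmp8*, *Mmp9*, *Adam8* and the lysosomal *Ctsd* were higher in neutrophils, and *Ctss*, *Ctsb*, *Ctsc* and the inhibitor *Cst3* (cystatin C) were higher in monocytes. *Ctss* (cathepsin S, which trims the invariant chain) was at 658 and 158 CPM in neutrophils and 2329 and 1895 in monocytes, or 169 and 117 in neutrophils without the cells that carried RNA of another type. *Ctsd* (cathepsin D) was at 914 and 972 CPM in neutrophils and 198 and 130 in monocytes. The gelatinase and collagenase transcripts were thus on the neutrophil side, and 3 of the 4 proteins of the other side are cysteine cathepsins.

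Of 13 myeloid transcription factors tested, 6 were higher in monocytes, 6 were not called and 1, *Cebpd*, was higher in neutrophils (892 and 960 CPM against 148 and 124). *Irf8*, which directs progenitors to monocytes and dendritic cells, was at 44.6 and 36.5 CPM in neutrophils and 216 and 606 in monocytes, or 212 and 209 in monocytes without the cells that carried RNA of another type. *Klf4*, needed for monocyte formation, was at 44.6 and 0 CPM against 274 and 287. *Spi1* (PU.1), which both lineages need, was at 1092 and 826 CPM against 750 and 677 and was not called.

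Immediate early genes were called higher in neutrophils in 5 of 9 cases and in monocytes in none. *Junb* was at 1594 and 899 CPM in neutrophils and 306 and 319 in monocytes, *Fos* at 613 and 547 against 155 and 124, and *Dusp1* at 1003 and 632 against 68.5 and 150. *Dusp1* overlaps another annotated gene on its strand.

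Interferon-induced genes went both ways, with 5 of 11 higher in neutrophils (*Isg15*, *Ifit1*, *Ifit3*, *Oasl2* and *Rsad2*) and 3 in monocytes (*Ifitm3*, *Ifitm6* and *Ifi209*). *Isg15*, a ubiquitin-like modifier, was at 981 and 365 CPM in neutrophils and 151 and 111 in monocytes. *Ifitm3*, which restricts virus entry, was at 3087 and 1665 CPM against 5638 and 4780, and at 2016 CPM in neutrophils of aorta 1 without the cells that carried RNA of another type.

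The study disrupted TGF-β receptors in smooth muscle, so the pathway was looked at in these cells, in which the receptors are intact. Of 11 pathway genes measured, 7 were tested and none was called by edgeR, with 1 at an unadjusted p under 0.05 and 0 called by DESeq2 among 10 tested. *Tgfb1*, the ligand, was at 167 and 194 CPM in neutrophils and 443 and 306 in monocytes (log2 fold change -0.997 ± 0.325), just short of the fold limit. It was called without the cells that carried RNA of another type (log2 fold change -1.74 ± 0.37). The receptors were low in both, *Tgfbr2* at 78.0 and 60.8 CPM against 61.3 and 32.6, and *Tgfbr1* at 66.9 and 48.6 against 79.3 and 39.1.

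Of 5 cell cycle genes tested, *Mki67* was called higher in neutrophils, at 0 and 243 CPM against 3.6 and 6.5. All 20 of its UMIs came from the single deep cell described above, and without cells with RNA of another type the log2 fold change turned to -5.10. No other cell of the neutrophil group had a UMI of *Mki67* or *Top2a*.

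Neutrophils also varied among themselves. Without the cells that carried RNA of another type, 37 and 31 neutrophils were ordered by their share of *S100a8* and *S100a9* UMIs and divided at the middle, and other genes were counted per 1000000 of the remaining UMIs. This is a description without a test, since the order uses the genes that chose the cells. *Retnlg* stood at 8544 in the upper set and 1038 in the lower set of aorta 1, and at 28745 and 3654 in aorta 2. *Wfdc21* stood at 1674 and 314 in aorta 1 and at 1391 and 287 in aorta 2, and *Lcn2* at 872 and 252 and at 2993 and 537. *Il1b* had the opposite order, at 3801 in the upper and 7358 in the lower set of aorta 1 and at 2613 and 4335 in aorta 2. *Retnlg*, *Wfdc21* and *Lcn2* were thus higher in the cells rich in the S100 pair in both aortas, and *Il1b* was higher in the others. In aorta 1, a single cell of the lower set held 78 of the 234 *Il1b* UMIs of that set.

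Of 26 list genes with at least 20 UMIs in each aorta, 10 were higher in the upper set in both aortas, 9 were lower in both and 7 went different ways. Among those higher in both were *Retnlg*, *Wfdc21*, *Lcn2*, *Mxd1*, *Ccl6*, *Msrb1*, *Jund*, *Slpi* and *Csf3r*. Those lower in both were *Il1b*, *Cst3*, *Cxcr2*, *Fos*, *Junb*, *Zfp36*, *Dusp1*, *Isg15* and *Oasl2*. Over single cells of 1 aorta, which share a library and differ in depth, the Spearman correlation of the S100 share with *Retnlg* was 0.46 (37 cells) and 0.84 (31 cells), with *Lcn2* 0.37 and 0.59, and with *Il1b* -0.08 and -0.50. For *Csf3r*, which was among the genes higher in the upper set, the correlations over cells were -0.01 and -0.06.

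**Figure D4:**
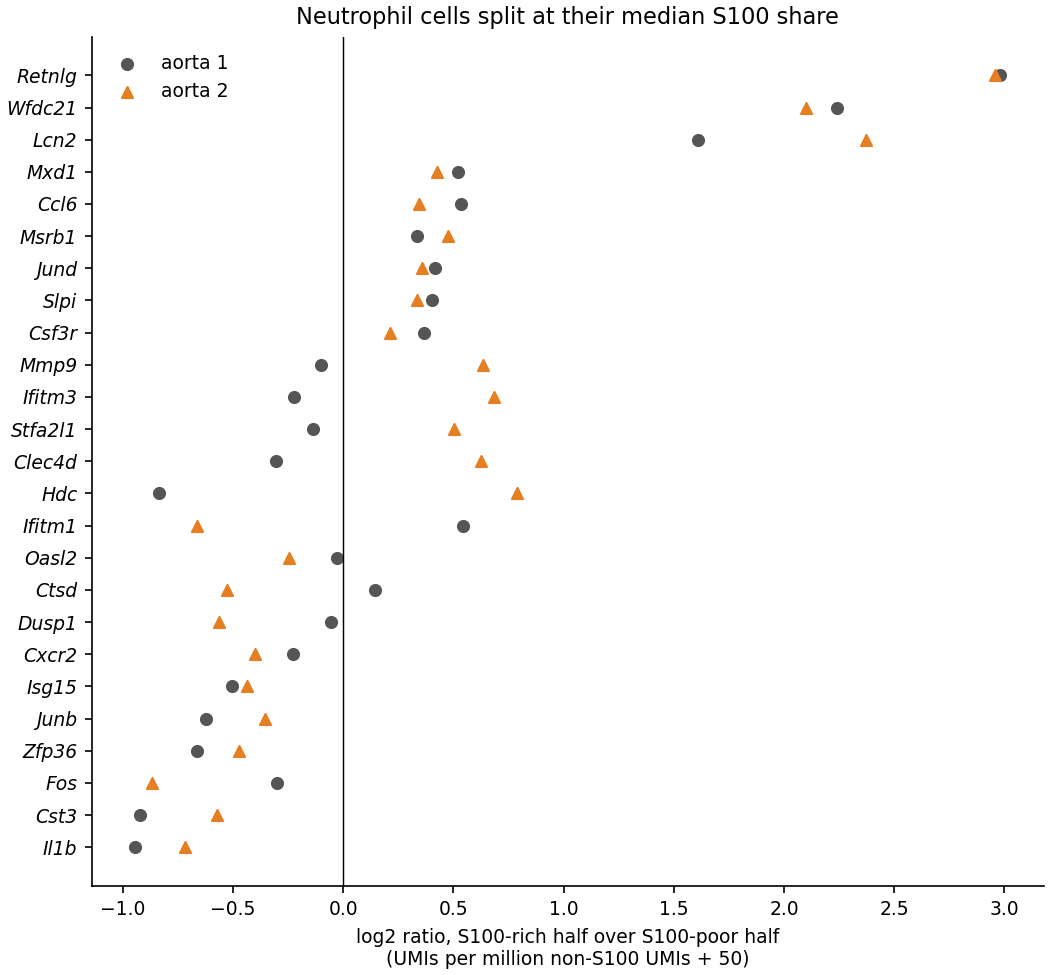
Log2 ratio of the upper to the lower set of neutrophils by S100 share (x axis, UMIs per 1000000 non-S100 UMIs with 50 added) for list genes with at least 20 UMIs in each aorta (rows), with 1 point for each aorta. *Retnlg*, *Wfdc21* and *Lcn2* lie to the right of 0 in both aortas, and *Il1b* lies to the left with values of -0.94 and -0.72.

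Monocytes were compared next with resident macrophages of the same aortas, taken as cells with a *C1qa*, *C1qb* and *C1qc* sum of at least 5, at least 1 UMI of *Folr2* or *Cd163* and none of the other excluded genes. Of the 3834 genes, 926 (24.2%) were called, 420 (11%) higher in monocytes and 506 (13.2%) higher in macrophages, and the count was 616 without the macrophages of aorta 2 and 1498 with no filter on low counts. Several genes of tissue-resident macrophages had no UMI in monocytes, and several of the non-classical monocyte list were near 0 in macrophages. Such genes passed the filter on low counts mainly through the group where they were high, so the list counts below are a description.

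Of 11 tested genes of the Ace (non-classical) monocyte list, 10 were called higher in monocytes than in macrophages. *Treml4*, a receptor for dead cells, was at 166 and 130 CPM in monocytes and 0.574 and 1.07 in macrophages. *Itgal*, the α chain of the integrin LFA-1 by which monocytes crawl along endothelium, was at 458 and 274 CPM against 5.17 and 3.73 (log2 fold change 6.29 ± 0.29). *Adgre4* was at 209 and 221 CPM against 13.2 and 10.1, *Spn* (CD43) at 198 and 156 against 5.17 and 3.2, and *Cx3cr1* at 357 and 319 against 123 and 95.5. For all of these the monocyte values of both aortas lay above both macrophage values. *Cx3cr1* overlaps other annotated genes on its strand.

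Other genes leading the monocyte side were *Ly6i* and *Gm9733*, both without a UMI in macrophages (at least 236-fold and 207-fold higher), *Napsa*, an aspartic protease (523 and 827 CPM against 2.87 and 3.73), *Gpr141*, *Ear2*, *Sirpb1c*, *Cytip* and *Ms4a4c*. Of the 12 adhesion genes, 7 were higher in monocytes, among them *Itgal*, *Itga4*, *Itgb7*, *Itgax*, *Spn* and *Cd44*, and none was higher in macrophages. *Itga4*, which pairs with β1 to bind VCAM-1, was at 685 and 521 CPM against 124 and 123.

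Interferon-induced genes were also on the monocyte side, with 8 of 11 higher in monocytes and 0 in macrophages. *Ifitm6* was at 1136 and 671 CPM against 137 and 141, and *Irf7* at 288 and 137 against 27.8 and 65.6. *Ifitm3*, at 5638 and 4780 CPM against 2190 and 2955, was called at a log2 fold change of 1.00 and lost its call with the aorta as a block (0.98).

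Of 15 macrophage genes, 13 were called higher in macrophages. *Pf4*, *Lyve1*, *Timd4* and *Mgl2* had no UMI in monocytes of either aorta while *Pf4* stood at 4289 and 4839 CPM in macrophages (at least 644-fold), *Lyve1*, the hyaluronan receptor, at 1617 and 1979 CPM (at least 251-fold) and *Mgl2* at least 130-fold. *Mrc1*, the mannose receptor, was at 36.0 and 0 CPM in monocytes and 2463 and 2683 in macrophages. *Apoe* was at 3280 and 3035 CPM in monocytes, still among their abundant transcripts, and at 18320 and 20034 in macrophages. *F13a1*, coagulation factor XIII and a gene of the Ly6c2 (classical) monocyte list, was higher in macrophages, at 209 and 254 CPM against 2427 and 2977.

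TGF-β pathway genes differed here more than between neutrophils and monocytes in number of calls, although the 2 counts were not compared by a test. *Tgfbr2* was at 61.3 and 32.6 CPM in monocytes and 235 and 251 in macrophages, and *Ski* (a repressor of SMAD proteins) and the target *Tgfbi* were also higher in macrophages, the latter a call that was lost without the cells that carried RNA of another type (-0.93). *Tgfb1* was called higher in monocytes at a log2 fold change of 1.00, a call that held in 5 of 14 alternatives, and was 0.97 with the aorta as a block, under the fold limit. Of 7 MHC class II genes, 1 (*H2-Oa*) was called, and its UMIs came from aorta 2 alone (0 and 78.1 CPM against 1.43 and 1.07). Without the cells that carried RNA of another type its log2 fold change was -3.18, and *Xcr1*, also from aorta 2 alone, rested on cells of the same kind.

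Dendritic cells held 187764 and 167071 UMIs in all, against 3484582 and 1874631 in resident macrophages. Counts of calls from these 2 comparisons therefore cannot be set side by side. Against dendritic cells the monocytes differed in 281 of 3834 genes (7.33%), with 183 (4.77%) higher in monocytes and 98 (2.56%) higher in dendritic cells. The dendritic cells numbered 17 and 16, and the count fell to 43 without monocytes of aorta 1, 74 without dendritic cells of aorta 1 and 163 without those of aorta 2. It was 450 with no filter and 496 without the cells that carried RNA of another type. Dendritic cells had been chosen by at least 1 UMI of *Flt3* or *Cd209a* and at least 5 of the class II genes *H2-Aa*, *H2-Ab1* and *H2-Eb1*, so the other class II genes below are close to that choice.

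Of 15 macrophage genes tested, 5 were higher in monocytes (*Fcgr1*, *Apoe*, *Selenop*, *Trem2* and *Csf1r*), 1 (*Mrc1*) in dendritic cells, and 9 were not called. The *Mrc1* call was lost with the aorta as a block. *Mgst1*, a glutathione transferase, was at 321 and 391 CPM in monocytes without a UMI in dendritic cells (at least 40.9-fold), and *Fcgr1* (CD64) at 137 and 130 CPM without a UMI (at least 15.9-fold). *Apoe* was at 3280 and 3035 CPM against 26.6 and 65.8, *Hp* (haptoglobin) at 616 and 469 against 0 and 23.9, and *Cebpb* at 1521 and 1224 against 21.3 and 95.8. *Csf1r*, the macrophage colony-stimulating factor receptor, was at 537 and 384 CPM against 32.0 and 41.9 (log2 fold change 3.55 ± 0.39). Of 11 Ace-list genes, 9 were higher in monocytes and none in dendritic cells, and of 10 Ly6c2-list genes 6 and none.

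On the dendritic side were 5 of 7 MHC class II genes, or 7 of 7 without the cells that carried RNA of another type. *Cd74* was at 5584 and 10562 CPM in monocytes and 30427 and 25229 in dendritic cells. *Retnla* (resistin-like alpha) was at 10.8 and 6.51 CPM against 900 and 1089, *Mki67* at 3.6 and 6.51 against 202 and 198, and *Top2a* at 0 and 6.51 against 181 and 138. The monocytes thus held 2 *Mki67* UMIs in all.

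Class II RNA was unevenly spread over the monocytes. In all, 23 of 41 and 15 of 25 monocytes had no UMI of the class II genes used to choose dendritic cells, 7 and 3 had 1 to 9, and 11 and 7 had at least 10. The 3 cells of aorta 2 with the most, 394, 385 and 325 UMIs, had no *Csf1r* UMI and only 16, 21 and 20 UMIs of *Lyz2*, against a median of 71, so their markers went against the monocyte label. In aorta 2, 3 cells of the group had a UMI of *Xcr1* or *Clec9a*, markers of cross-presenting dendritic cells, and none in aorta 1 did. Without the cells that carried RNA of another type, 11 of 39 monocytes in aorta 1 and 3 of 20 in aorta 2 had at least 10 class II UMIs, and the highest values were 388 and 132.

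The monocytes were divided further by the genes that tell the classical from the non-classical kind. Cells with *Ly6c2* or *Chil3* and no *Ace* formed the Ly6c2/Chil3 arm (14 and 9 cells), cells with *Ace* and neither of the others formed the Ace arm (11 and 5), and 16 and 11 cells had both (15 and 8) or none (1 and 3). Median depth was 7918 and 6462 UMIs in the Ly6c2/Chil3 arm and 4978 and 2450 in the Ace arm. A cell with few UMIs can miss a gene it expresses, so the arms are ranges of detection and not cell types.

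Of 1369 genes tested between the arms, 95 (6.94%) were called, 54 (3.94%) higher in the Ace arm and 41 (2.99%) higher in the Ly6c2/Chil3 arm. The count was 32 without the Ace arm of aorta 1 and 52 with DESeq2 (22 and 30). Of the 95 genes, 45 were among the 52 that DESeq2 called. Genes of the non-classical monocyte, which had not been used to form the arms, moved with *Ace*. In the Ace arm, 9 of the 11 Ace-list genes were higher, and the list had a median log2 fold change of 2.71 against -0.04 over all genes.

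*Nr4a1*, the factor that non-classical monocytes need, was at 427 and 889 CPM in the Ace arm and 63.1 and 63.4 in the Ly6c2/Chil3 arm (log2 fold change 3.06 ± 0.50). *Adgre4* was at 543 and 815 CPM against 36.1 and 31.7 (4.06 ± 0.50), and *Eno3*, a muscle enolase, at 369 and 444 against no UMI, at least 22.3-fold higher. *Spn* was at 543 and 518 CPM against 45.1 and 0, *Pglyrp1* (a peptidoglycan-binding protein) at 563 and 593 against 36.1 and 63.4, and *Itgal* at 699 and 889 against 180 and 143. *Treml4* was at 349 and 296 CPM against 54.1 and 47.6, a call that DESeq2 did not make. The Ace arm of aorta 2 held only 13502 UMIs, so that 1 UMI there is 74.1 CPM. Its values for these genes rest on 4 UMIs (*Treml4*) to 12 UMIs (*Nr4a1* and *Itgal*).

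Outside that list, *Fcgr4*, an activating IgG receptor, was at 660 and 518 CPM in the Ace arm and 36.1 and 0 in the other, *Cd36*, a scavenger receptor for oxidized lipoprotein, at 505 and 370 against 0 and 63.4, and *Pou2f2* at 1242 and 1407 against 270 and 206 (2.35 ± 0.32). *Gngt2*, *Ctsb*, *Apoe*, *Cebpb*, *Sat1*, *Gm42418*, *Msn*, *Laptm5* and *B2m* were the 9 genes that met the naming rule on this side. Their log2 fold changes ran from 1.07 to 2.26. Over the alternatives, those of *Gm42418*, *Msn*, *Laptm5* and *B2m* fell as low as 0.80, 0.80, 0.74 and 0.64, under the fold limit. *Apoe* was at 5589 and 11702 CPM against 2758 and 2235. *Gm42418* holds reads of ribosomal RNA, and it was at 6753 and 7703 CPM in the Ace arm against 3155 and 2600.

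On the Ly6c2/Chil3 side stood *F13a1*, at 442 and 476 CPM without a UMI in the Ace arm (at least 9.84-fold), *S100a6*, a calcium-binding protein (2911 and 3408 CPM against 699 and 370, log2 fold change -2.43 ± 0.31), *Ifi30*, a thiol reductase of antigen processing (829 and 1173 against 97.0 and 0), and *Ms4a4c* (487 and 460 against 77.6 and 0). *Capg*, *Tmem176b*, *H2-DMb1*, *H2-DMa*, *Rgs10* and *Emb* were the others named by the rule. Of 8 Ly6c2-list genes tested, 2 were called (*F13a1* and *Ms4a4c*), and 7 of 8 without the cells that carried RNA of another type. *Cd74* was at 5372 and 6754 CPM in the Ly6c2/Chil3 arm and 1863 and 148 in the Ace arm, a call that was lost without those cells. *H2-DMb1*, *H2-DMa* and *Rgs10* were then too low to test.

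In the monocytes with both or none of the arm genes, levels often lay between the arms. For 10 of 11 Ace-list genes, all but *Cx3cr1*, their CPM lay between those of the arms in both aortas. For the Ly6c2 list this was so for 7 of 8 genes in aorta 1 and 3 of 8 in aorta 2, and in both aortas for 2, *F13a1* and *Ms4a4c*. These counts describe 16 and 11 cells and carry no test.

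**Figure D5:**
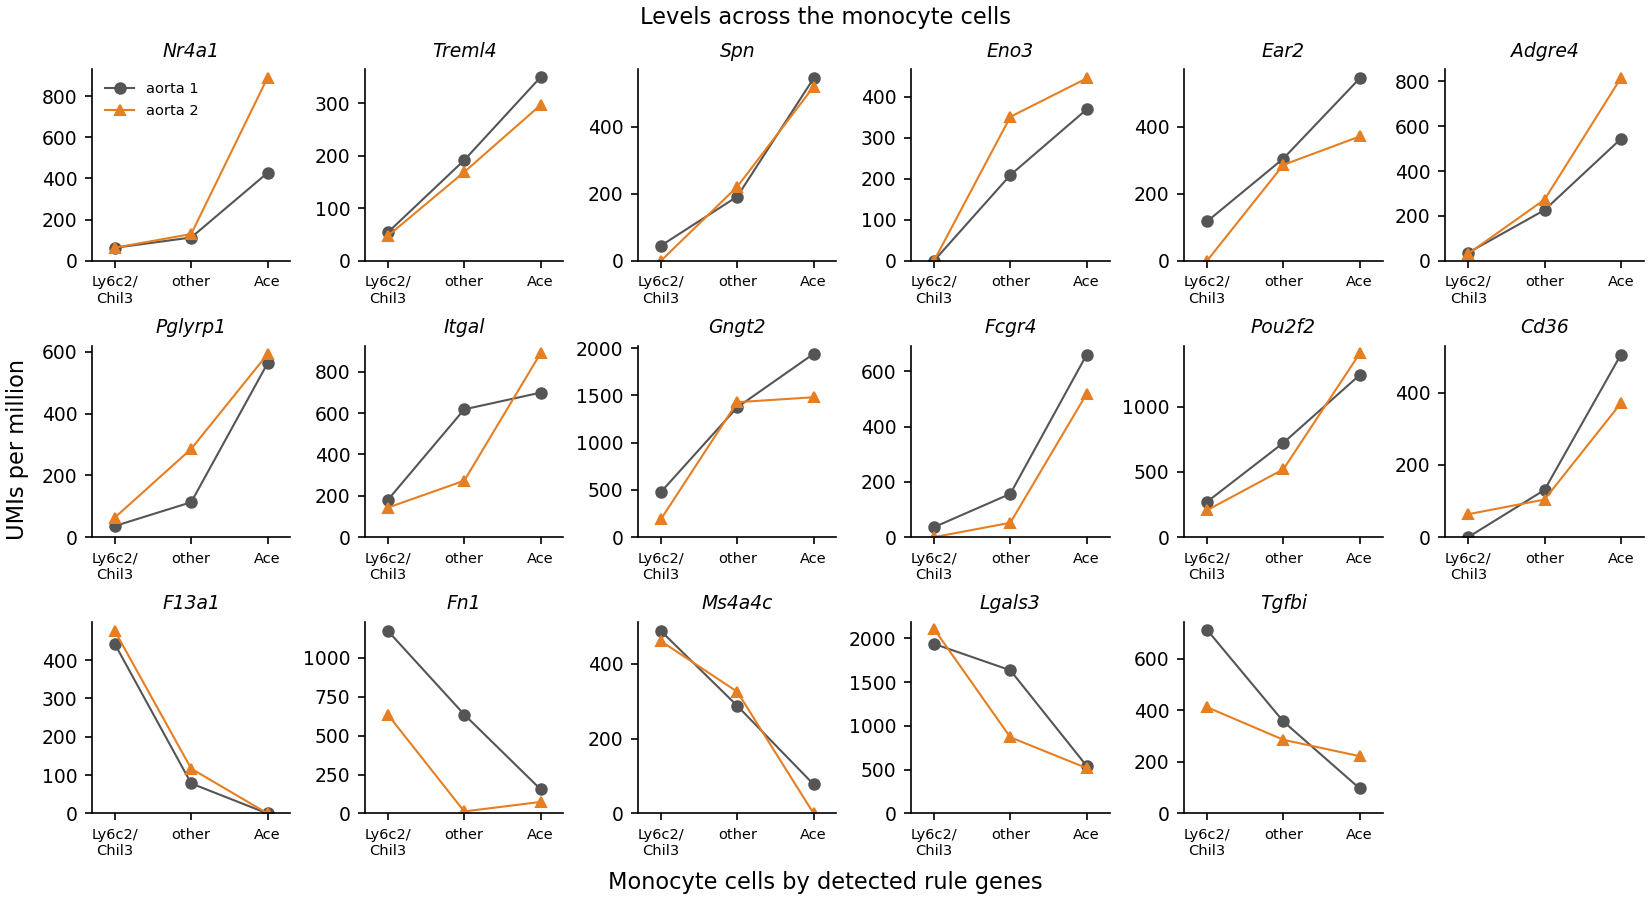
CPM of named genes, 1 per panel, in the Ly6c2/Chil3 arm, the other monocytes and the Ace arm (x axis of each panel), with a line for each aorta. *Nr4a1* climbs from 63.1 to 427 CPM in aorta 1 and from 63.4 to 889 in aorta 2 between the arms, and *F13a1* goes from 442 and 476 to 0.

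The lineage reporter was read in the same cells after thinning each to 1000 UMIs, since deeper cells show more reporter UMIs. The unrecombined tdTomato was found in 64.3% and 52.9% of neutrophils and in 39.0% and 40% of monocytes, against 3.0% and 3.14% of smooth muscle cells. The eGFP of recombined smooth muscle was found in 9.52% and 8.82% of neutrophils and 14.6% and 8.0% of monocytes, against 95.7% and 92.9% of smooth muscle cells and 11.9% and 6.40% of resident macrophages. Without thinning, eGFP was found in 19.0% and 17.6% of neutrophils and 31.7% and 28% of monocytes. Resident macrophages should lack the recombined reporter, and the eGFP share of neutrophils was below theirs in aorta 1 and above it in aorta 2, while that of monocytes was above it in both. Single cells stood out, with 59 eGFP UMIs in a monocyte of aorta 1 and 81 in a cell of the neutrophil group of aorta 2. No test was made of these differences.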

How the data were processed

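Single cells of 2 thoracic aortas were profiled with the Chromium 3′ v3.1 chemistry. The deposited values are raw UMI counts per gene and cell that the authors made with Cell Ranger 4.0.0 (per the file headers) on mm10, with the reporters eGFP and tdTomato added. Strand use in counting is not given in the sources used here, so overlapping genes cannot always be told apart.

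A cell was kept if it had over 200 genes, between 1000 and 25000 UMIs and less than 10% of them from mitochondrial genes. Cells were assigned to groups by the stated UMI limits in Python 3.11.15. The rule, the groups and the gene lists were chosen with earlier results of these data known. Scrublet in scanpy 1.11.5 marked doublets, which were kept in the main analysis.

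Counts were summed per group and aorta, because cells are not replicates. The sums of 4 groups (8 sums) entered 1 model in edgeR 4.0.16 (R 4.3.3) with TMM scaling, filterByExpr and the quasi-likelihood test, leaving 4 residual degrees of freedom. The arms (6 sums with the other monocytes) entered a second model with 3. Genes used by any group rule (22) were left out of calls. Genes named without a list are at most 10 per direction, those with the largest called changes, at least 20 UMIs in the higher group in each aorta and the same direction in both. The edgeR comparison of neutrophils with monocytes was tried on simulated sums. The 2 aortas are separate animals, and p-values rest on the spread between them.

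Groups of the same aorta come from 1 animal and so are paired by construction. The differences between the aortas in log2 level correlated across 3834 genes at -0.05 to 0.07 over the pairs of groups. Alternatives were the block by aorta, DESeq2 1.42.0, other size factors, no filter on low counts, other cell filters and limits, and leaving out each sum in turn. Gene positions are from GENCODE M21 (GRCm38), matched by gene ID. A few genes of the lists are counted but not reported here by name.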

Additional observations from a re-analysis of the deposited data

How the results depend on the processing

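Without the cells that carried RNA of another type, an alternative chosen after seeing the data, the counts of called genes were 1231 for neutrophils against monocytes and 496 for monocytes against dendritic cells, and the share of neutrophils and monocytes was 1.11%. With no filter on low counts, monocytes differed from macrophages in 1498 genes and from dendritic cells in 450. DESeq2 called 52 genes between the arms. Leaving out each sum in turn gave 494 to 643 genes for neutrophils against monocytes, 616 to 891 for monocytes against macrophages, 43 to 237 for monocytes against dendritic cells, and 32 to 110 between the arms. In these fits a group with 1 sum is assumed to vary like the other groups. The share of the cells was 1.23% to 1.26% with either aorta alone, 1.27% without doublets, 0.746% with 5000 to 25000 UMIs, 1.13% with no UMI limits, 3.05% under 1% structural UMIs and 1.20% with an S100 sum of at least 10. The neutrophil share was 0.623% to 0.724% with either aorta alone, 0.0646% with 5000 to 25000 UMIs and 1.65% under 1% structural UMIs.

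With the aorta as a replicate block, the counts were 741, 878, 245 and 121 in the order above. Among named and listed genes the block ended the calls of *Ccr1*, *Ifitm3*, *Klrk1*, *Tgfb1* and *Xcr1* (monocytes against macrophages) and of *Fos*, *Mrc1* and *Trem3* (monocytes against dendritic cells), and no others. It added 6 calls between the arms, among them *Fn1*, *Hp*, *Irf8* and *Slpi*, 1 for monocytes against macrophages (*Fn1*), 1 against dendritic cells (*Ctss*) and 0 for neutrophils against monocytes. *Mki67* reversed between neutrophils and monocytes, to -5.10 without cells with RNA of another type and from -5.08 to 5.70 when 1 sum was left out (the lowest without neutrophils of aorta 2). *H2-Oa* reversed between monocytes and macrophages, to -3.18 and from -3.34 (without monocytes of aorta 2) to 5.74 in the same ways. No other named or listed gene that was called in the comparison as reported reversed, and uncalled genes were not counted, although *Cst3*, not called between the arms, was called higher in the Ace arm (1.46) without cells with RNA of another type. Among named and listed genes that were called, 84, 108, 168 and 64 combinations of a gene and an alternative lost the call in the 4 comparisons. In the same order, 1161, 1439, 807 and 413 kept it. Over all called genes, DESeq2 kept 631 of 790, 738 of 926, 233 of 281 and 45 of 95. With 5000 to 25000 UMIs, the neutrophils and the arms had too few cells for a test. With 42 and 34 neutrophils of about 1749 and 1936 UMIs, genes expressed at low levels were mostly not tested.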
